A study of Acipenser ruthenus with 15 samples.

Results

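In sterlet eggs (Acipenser ruthenus, one of the small sturgeons), 38 assembled transcripts out of 42878 were concentrated on the animal side without being restricted to the outermost segment. They are called the animal-side transcripts here. Each egg had been cut into 5 segments, A at the animal pole through E at the vegetal pole. A transcript's share in a segment is its mean level there divided by the sum of its 5 segment means. Members were chosen on 4 limits: a mean level of at least 5 and below 600 CPM (counts relative to the size of the library, scaled between libraries with TMM), a share of A below 60%, a share of A above that of B, and A and B together holding at least 75%. Of 17167 transcripts in that range of levels, 38 met the other limits. The choice therefore used the measured values of A and B, and every level, share or fold change of the 38 that involves A or B is a description without a test.

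The study followed RNA along the animal-vegetal axis. Per the labels, the samples are stage 1 oocytes, each frozen in embedding medium and sliced on a cryostat, and 3 of them, numbered 10, 18 and 20, gave 15 strand-specific, ribosome-depleted RNA libraries, 1 per segment of each egg. No treatment, genotype, strain or age is given in the labels, nor whether the eggs came from separate females. The p-values of the main fits therefore measure only how far segment differences varied over these 3 eggs. The labels give no thickness for the segments, so A and B together need not be the same volume as C, D and E.

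The animal pole of an egg is the side that holds the nucleus, and the vegetal pole is the side rich in yolk. Messenger RNAs made by the mother during oogenesis can be unevenly placed along this axis, and in the frog Xenopus such placement is known to help set apart the regions that later form ectoderm on the animal side and endoderm on the vegetal side. Sturgeon eggs cleave completely, as frog eggs do, and their germ plasm is known to lie on the vegetal side.

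Library totals ran from 4347026 to 14500611 counts, and the 38 transcripts held summed counts over the 3 eggs of 456 to 25254 in A and 36 to 3153 in E. No member had a library without a count, and the lowest count was 1. Libraries of the same segment differed by more than counting error, with a chi-square per degree of freedom of 4.77 to 27.2 in every pair. All 38 passed the filter on low counts, which left 29102 transcripts for testing. The values are relative to the RNA in each library, and every library was started from an equal mass of total RNA, per the labels' protocols. Less of a transcript per segment and more of the other RNA there cannot be told apart, and neither the total RNA of a segment nor the way reads were assigned between near-identical copies is given in the sources used here.

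The files identify transcripts by assembly ID only, and none of the 42878 IDs matched the annotation table, so neither gene names, roles nor sequences are given. IDs are printed without their common prefix. Of the 38, 24 carry a DN number and 14 a GG number, the Trinity assembler's forms for de novo and genome-guided assembly. The GG share was 36.8%, against 27.3% of all transcripts in the same range of levels. The 38 belong to 38 different Trinity genes and 38 different Trinity read clusters, so none is a second form of another by ID. A DN and a GG form of the same RNA would carry different IDs, so the IDs cannot show whether the 38 hold such pairs. Some DN and GG members ran closely alike over the 15 libraries. Examples are DN54828c0g1t6 with GG_52360c0g1t1 (correlation r = 0.995) and DN23152c0g1t1 with GG_42953c0g1t1 (0.989). Members of the same form did so too, such as DN48782c0g1t1 with DN52765c1g2t4 (0.992). The 38 were chosen for a similar course, and even the lowest correlation of a member with its nearest was 0.946 (DN49248c0g1t1). High values are therefore no sign that a pair is the same RNA, which was not tested.

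The typical member placed over 50% of its summed level in A, and B held more than any segment beyond it. The median share over the 38 was 54.4% for A and 22.6% for B, against 9.63% for C, 6.73% for D and 5.84% for E, where an even spread would give 20% in each. Shares ran from 38.9 to 59.7% in A and from 16.2 to 36.3% in B. In 30 members B was itself above 20%, in the other 8 it was not, and no member had C above 20%. The median fold between neighbours was 2.39 between A and B and 2.27 between B and C, while it was 1.45 between C and D and 1.11 between D and E. The drop on the animal side was thus spread over both steps in the typical member. From A to E the level differed by 5.92 to 22.3-fold, with a median of 9.09-fold, and 18 members exceeded 10-fold.

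**Figure D1:**
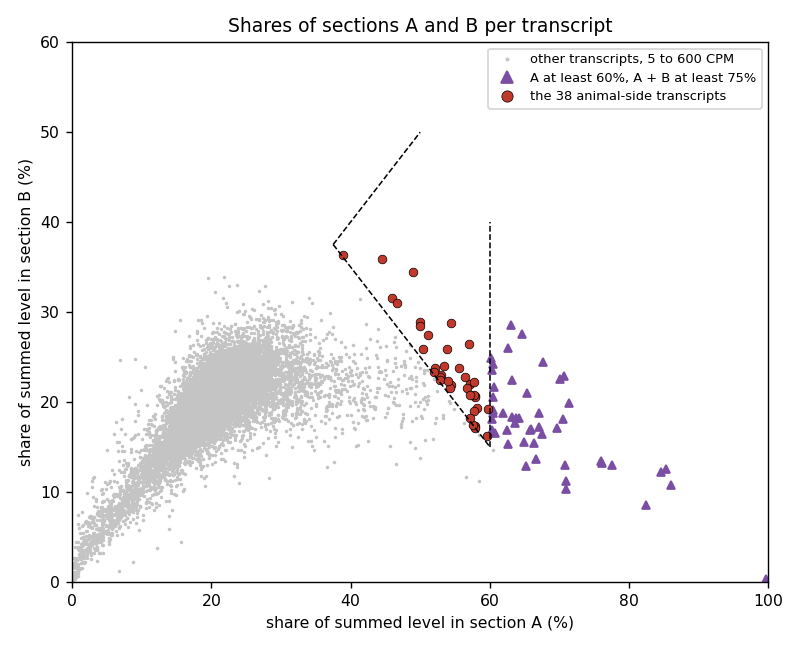
Share of the summed level in segment A (horizontal axis, %) and in segment B (vertical axis, %) for each transcript of 5 to 600 CPM, with the limits of the choice as dashed lines. The 38 animal-side transcripts (red) fill a narrow strip just above the 75% limit, from an A share of 38.9% with B at 36.3% down to B shares of 16.2%, next to 48 transcripts (violet) with A at 60% or more.

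The strip is bounded by the limits of the choice, and transcripts lay close to both sides of them. DN51155c1g1t1 stood just inside the 75% limit with 75.02% in A and B, while GG_117527c0g1t1, at a mean of 5.23 CPM, stood just outside with 74.8%. At the other limit, the nearest transcript left out had an A share of 60.2%. With 70% in place of 75%, and the limit on A unchanged, 92 transcripts met the limits, and with 80% only 5 did. The same limits with E and D in place of A and B gave 136 transcripts under TMM, more than the 38 on the animal side. That order held with DESeq2 size factors (35 animal-side and 136 vegetal-side) and with total counts (46 and 113). It turned with the number per library implied by the authors' normalized files, which gave 90 animal-side and 24 vegetal-side, and with the spike-in line, which gave 114 and 27.

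Together the 38 transcripts made up a small and graded part of the RNA. Their summed level was 4957 ± 991 CPM in A and 2021 ± 195 CPM in B. It was 912 ± 97.0 CPM for C, 551 ± 57.0 CPM for D and 524 ± 95.7 CPM for E (SD, n = 3 eggs). In A these levels were 3917 CPM in egg 10, 5063 in egg 18 and 5891 in egg 20, each above every B library, whose range was 1868 to 2241. The C libraries lay below all B libraries, at 851 to 1024, and D and E overlapped, at 487 to 596 and 420 to 609. As a share of the deposited counts this was 0.497% ± 0.0933 in A and 0.0496% ± 0.00900 in E.

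**Figure D2:**
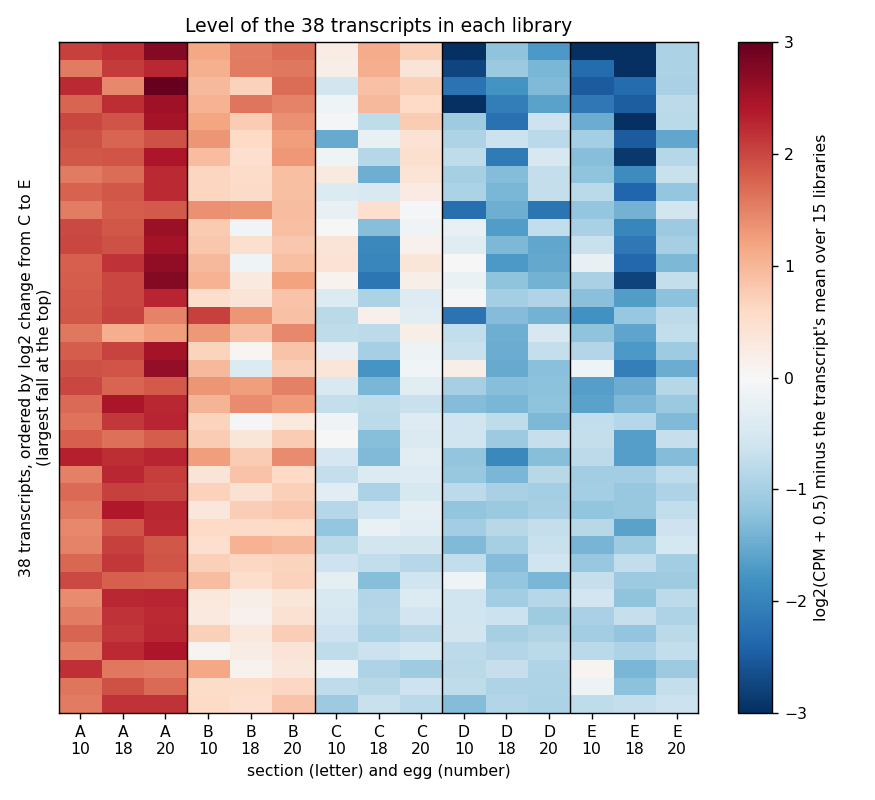
Level of each of the 38 transcripts (rows, ordered by the log2 change from C to E) in each of the 15 libraries (columns, by segment and egg), as log2(CPM + 0.5) minus the transcript's mean. All rows are high in the A columns and most are intermediate in B, while GG_46363c2g1t1 and DN46906c1g1t1 are nearly as high in B as in A. The rows at the top keep a level near their mean in C and are lowest in D and E.

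Mean levels over the 15 libraries ran from 5.94 to 291.8 CPM with a median of 23.5 CPM, and 13 members reached 50 CPM. The most abundant, DN50029c0g1t1, measured 582.5, 948.9 and 1075 CPM in A of eggs 10, 18 and 20, and 212.6, 234.6 and 261.5 CPM in B. Its levels were 118.3, 127.4 and 139.3 CPM in C, 115.7, 109.2 and 114.9 CPM in D, and 113.9, 104.4 and 119.2 CPM in E. It fell from A to C in each egg, and its C, D and E libraries all lay between 104.4 and 139.3 CPM. Its change from C to E was -0.21 ± 0.13 (log2, SE; edgeR's quasi-likelihood test, adjusted p = 0.381), which did not pass the threshold of 0.05.

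The next most abundant, DN50343c0g1t1, measured 266.0, 394.9 and 345.8 CPM in A and 134.3, 195.5 and 185.5 CPM in B. In C it stood at 53.7, 64.8 and 64.5 CPM, in D at 37.7, 47.5 and 59.9 CPM, and in E at 35.6, 44.9 and 65.5 CPM. A, B and C did not overlap, whereas E of egg 20 stood slightly above the highest C library. The change from C to E was -0.38 ± 0.12 (log2, SE; edgeR, adjusted p = 0.0655).

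The members with the most in A and B differed in abundance. GG_11714c0g1t1, with 83.5% in A and B, measured 19.4, 16.1 and 17.5 CPM in A, 12.0, 11.4 and 13.9 CPM in B and 3.12, 1.42 and 3.51 CPM in C of eggs 10, 18 and 20. Its D libraries held 1.54 to 2.01 CPM and its E libraries 1.09 to 2.26 CPM. The steepest step of this transcript was the one from B to C, 4.63-fold in the means, the largest such step among the 38.

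DN53791c1g1t1, with 83.4% in A and B, had the most even A level of the named members, at 287.6, 266.9 and 279.9 CPM. B stood at 136.7, 97.0 and 152.4 CPM and C at 39.8, 22.5 and 44.8 CPM. Its D libraries measured 24.9, 14.5 and 23.3 CPM and its E libraries 32.5, 17.7 and 22.9 CPM. Egg 18 was lowest in every segment, and within each egg both D and E lay below C. The fall from C was 0.76 ± 0.16 to D (log2, SE; edgeR, adjusted p = 0.0129) and 0.56 ± 0.16 to E (adjusted p = 0.0307). The call for E was lost without egg 20, where the adjusted p was 0.427, without C or E of egg 20 (0.192 and 0.186), without C of egg 10 (0.0979) and without E of egg 18 (0.110), and in the fit without the egg term (0.403). The call for D was lost in 4 of the 18 fits that left out an egg or a library.

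At the other end, A and B were nearly level in a pair of members. GG_46363c2g1t1 measured 18.2, 12.8 and 14.3 CPM in A against 14.8, 11.0 and 16.5 CPM in B, means of 15.1 ± 2.80 and 14.1 ± 2.83 CPM (SD, n = 3). DN46906c1g1t1 measured 82.9, 92.7 and 63.7 CPM in A against 94.4, 56.9 and 41.5 CPM in B, means of 79.7 ± 14.8 and 64.3 ± 27.2 CPM. In both, A and B overlapped, with B the higher in 1 of 3 eggs, egg 20 for the former and egg 10 for the latter. In C the levels of DN46906c1g1t1 were 12.6, 24.8 and 18.0 CPM, and in D they were 4.41, 8.75 and 8.06 CPM. It thus fell from B to C and again from C to D in all 3 eggs. The change from C to D, -1.32 ± 0.35 (log2, SE), did not pass by edgeR's test (adjusted p = 0.0622). In egg 18 the step from C to D was the larger in fold. Over all 38, A was above B in 3 of 3 eggs for the other 36. The lowest A library lay above the highest B library in 34 members (6.78% of all tested transcripts), and the lowest B library above the highest C library in 32 (7.88% of all tested), both counts being shaped by the choice.

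**Figure D3:**
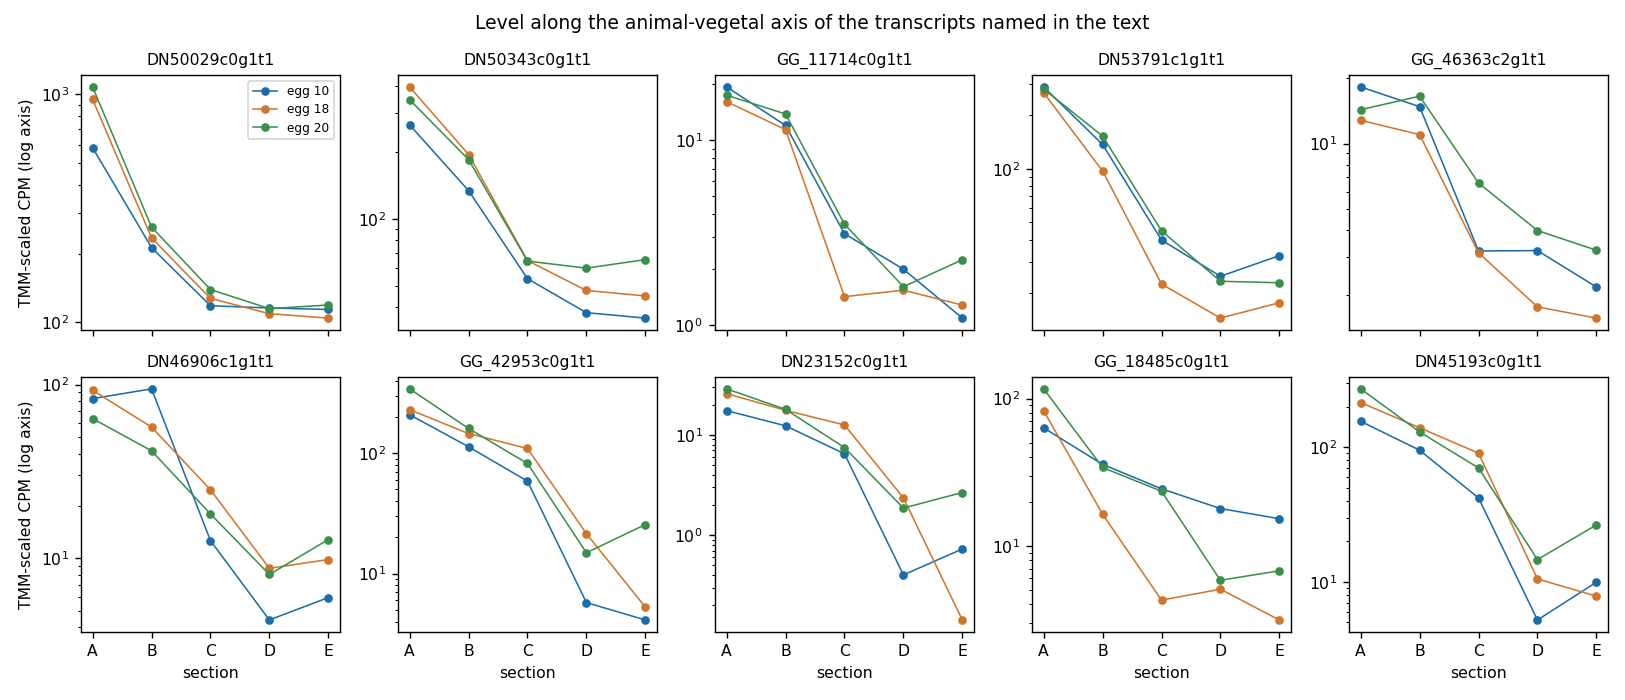
TMM-scaled CPM (log axis, a separate range per panel) in segments A to E of the 10 named transcripts, with 1 line per egg. DN50029c0g1t1 levels off at C, whereas GG_42953c0g1t1, DN23152c0g1t1 and DN45193c0g1t1 have their largest fold step in the means from C to D.

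The choice used C, D and E only through their sum, so how the remainder was divided among these 3 segments could be tested. Part of the members declined further from C toward E. From C to E, 16 of the 38 members were lower by edgeR's quasi-likelihood test with Benjamini-Hochberg adjustment over all 29102 transcripts, each in 3 of 3 eggs, and 0 were higher. In that comparison 3.95% of all tested transcripts were lower and 6.09% higher, that is 1149 and 1772 transcripts. That balance turned to 1954 lower and 1484 higher with total counts, 3198 and 451 with the spike-in, and 17893 and 520 with the deposited factor, where 37 members were lower and 0 higher. The members' median change from C to E was -0.77 on the log2 scale, with 36 of 38 below 0 and a range of -2.89 to 0.13, against a median of -0.02 over all tested transcripts. In 10 members the lowest C library lay above the highest E library (4.91% of all tested).

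The step from C to D had the larger median change. In D, 10 of the 38 members were lower than in C, and 0 were higher, whereas 0.505% of all tested transcripts were lower and 2.01% higher. The median change from C to D was -0.49 with 38 of 38 below 0, against -0.00 over all tested. The eggs did not all share this direction, since D was below C in 3 of 3 eggs for only 21 members. The smallest change was -0.03, in DN48782c0g1t1. Between D and E, 0 of 38 passed (0.282% of all tested passed in either direction), 3 had an unadjusted p under 0.05 (as had 2257 of all 29102), and DESeq2 called 0 as well. The median there was -0.14, with 29 of 38 below 0 and a range of -1.07 to 1.18, but this direction turned with the spike-in as size, where the median was 0.11 and only 10 members had a lower mean in E than in D. With the deposited factor some members passed, all lower, but far more of all transcripts passed as well than with TMM. With the spike-in a call in the other direction appeared, with no share over all transcripts beside it. Neither is read as a result about the members. All 10 members lower in D were among the 16 lower in E.

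**Figure D4:**
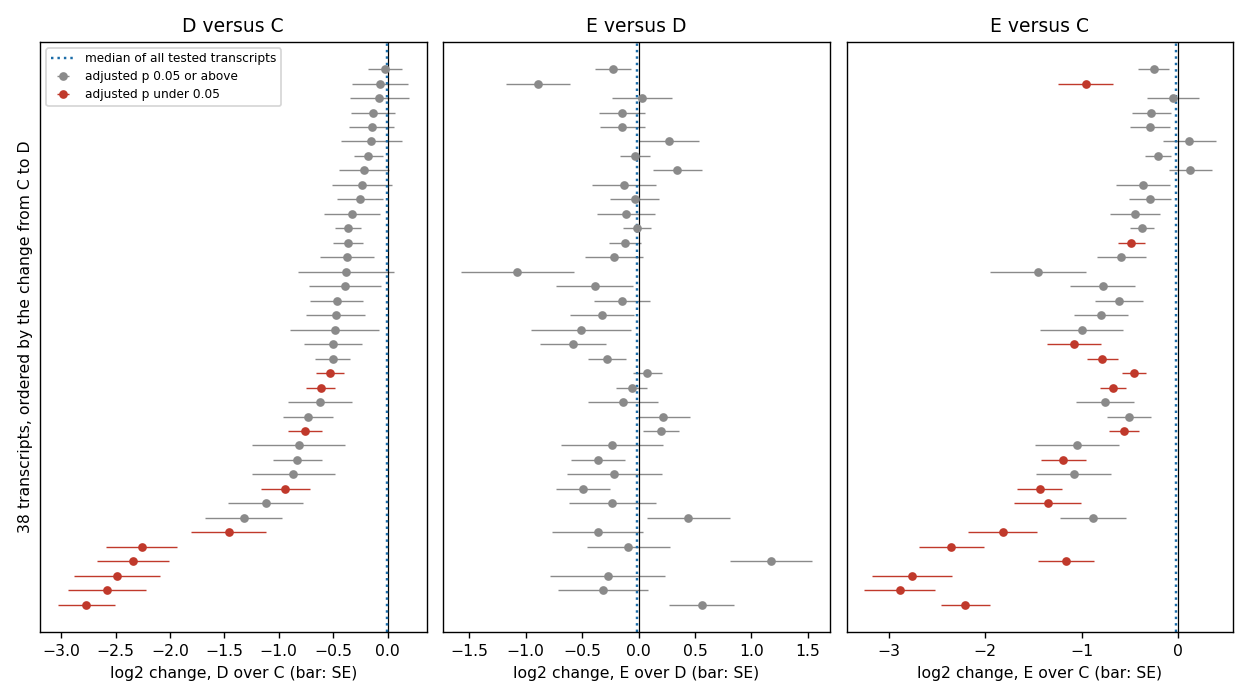
Log2 change with its SE for D over C (left), E over D (middle) and E over C (right) for the 38 transcripts, in the same order in each panel, with adjusted p under 0.05 in red. All 38 points of the left panel lie below 0 and 10 are red, none is red in the middle panel, and 16 are red on the right.

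These counts depended on single eggs and libraries. The 16 members lower in E became 9 without egg 20, 9 without E of egg 18 and 10 without C of egg 20. The 10 members lower in D became 5 without egg 20, 5 without D of egg 18, 5 without C of egg 20, 6 without D of egg 20 and 6 without C of egg 10. Across the 18 fits that left out an egg or a library, 7 of the 16 and 5 of the 10 were called every time.

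The 10 members called lower in D differed among themselves in C, where their shares ran from 7.31 to 17.2%. Their median share was 53.6% for A and 26.9% for B, then 13.2% for C, 3.67% for D and 3.95% for E. For the 28 not called, the medians were 56.6, 21.9, 9.42, 7.30 and 6.43%. The called members were also more abundant, with a median mean level of 76.3 against 14.7 CPM. Their median fold from C to D was 3.75, against 1.32 in the others, and these values were picked out by the test itself.

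The largest fitted log2 fall from C to E was that of GG_42953c0g1t1. It measured 208.3, 229.4 and 341.8 CPM in A, 113.0, 145.4 and 160.2 CPM in B and 58.5, 109.3 and 82.1 CPM in C of eggs 10, 18 and 20. In D it measured 5.75, 21.5 and 14.9 CPM, and in E 4.12, 5.27 and 25.5 CPM. Every C library lay above every D and E library, and E of egg 20 stood above the other E libraries. It fell by 2.58 ± 0.36 from C to D (log2, SE; edgeR, adjusted p = 0.000391) and fell by 2.89 ± 0.37 from C to E (adjusted p = 5.34e-05), and its means differed 22.3-fold from A to E.

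DN23152c0g1t1 had a similar course at a lower level. It measured 17.4, 25.7 and 28.7 CPM in A, 12.3, 17.6 and 17.9 CPM in B and 6.47, 12.5 and 7.46 CPM in C. In D it measured 0.401, 2.35 and 1.86 CPM and in E 0.727, 0.143 and 2.66 CPM, from 50 and 40 counts summed over the eggs. C did not overlap with D or E, and the E libraries differed most among themselves. It fell by 2.49 ± 0.39 from C to D (log2, SE; edgeR, adjusted p = 0.00128) and fell by 2.76 ± 0.41 from C to E (adjusted p = 0.000235).

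DN45193c0g1t1 dropped furthest from C to D. It measured 155.8, 215.0 and 271.6 CPM in A, 95.1, 139.6 and 130.0 CPM in B and 42.0, 90.5 and 70.2 CPM in C. In D it measured 5.22, 10.5 and 14.6 CPM, and in E 9.94, 7.84 and 26.5 CPM. Every D and E library lay below every C library, and E was above D in eggs 10 and 20. It fell by 2.77 ± 0.26 from C to D (log2, SE; edgeR, adjusted p = 1.26e-05) and fell by 2.21 ± 0.25 from C to E (adjusted p = 1.83e-05). These calls, and those of GG_42953c0g1t1 and DN23152c0g1t1, held in all 18 fits that left out an egg or a library.

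Whether the step to D exceeded the step beyond it was tested as a contrast (E plus C minus 2 times D on the log2 scale), added after the values were seen. It passed for 1 of 38 members, DN45193c0g1t1, at 3.33 ± 0.49 (edgeR, adjusted p = 0.0353), where 0.00687% of all tested transcripts passed in that direction. That call was lost in 13 of the 18 fits that left out an egg or a library and in the fit without the egg term. For the other 37 members a sharper drop at C to D than beyond it was therefore not shown.

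The 48 transcripts with A at 60% or more, and otherwise the same limits, gave smaller values from C to E. There 7 of 48 were lower and 0 higher, with a median of -0.47. From C to D, 6 of 48 were lower, with a median of -0.54. The difference between these groups of transcripts was not tested.

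The eggs differed in how far the 38 transcripts were drawn toward A. The median A share was 49.3% in egg 10, 60.1% in egg 18 and 54.8% in egg 20, with median B shares of 24.1, 22.5 and 22.7%. At the vegetal end the median E share was 6.86, 4.29 and 5.85%. Egg 10 thus had the flattest and egg 18 the steepest course by these medians. Over all transcripts of the same range of levels the median A share was 20.0, 20.0 and 19.9% in eggs 10, 18 and 20, values that TMM holds near the even share. E of egg 18 was the lowest E library in 27 members, and E of egg 20 the highest in 23.

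A and B held at least 75% in 17 members in egg 10, in 35 in egg 18 and in 30 in egg 20. This was met in all 3 eggs by 9 members, in 2 eggs by 26 and in 1 egg by 3. The range over eggs had a median of 9.40 percentage points. It was widest in GG_18485c0g1t1, where A and B held 63.2% in egg 10, 88.8% in egg 18 and 80.7% in egg 20.

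That transcript measured 63.3, 82.5 and 116.5 CPM in A and 35.7, 16.4 and 34.1 CPM in B. C stood at 24.4, 4.28 and 23.5 CPM, D at 17.9, 5.07 and 5.83 CPM and E at 15.3, 3.14 and 6.77 CPM. The largest fold step lay between A and B in egg 18 and between C and D in egg 20, while egg 10 declined at every step. The change from C to E, -1.05 ± 0.44 (log2, SE; edgeR, adjusted p = 0.152), did not pass. Among members of at least 20 CPM the range was narrowest in DN45193c0g1t1, with 81.4, 76.5 and 78.3%.

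The limits were also applied to 2 eggs at a time, and the egg left out was then read. The lists chosen this way differ from the 38 members, so the counts describe those lists and do not test the members. Without egg 10 the limits gave 43 transcripts, of which 17 held at least 75% in A and B in egg 10, with a median of 72.5%. Without egg 18 they gave 41, of which 35 did so in egg 18, with a median of 82.1%. Without egg 20 they gave 37, of which 28 did so in egg 20, with a median of 78.3%. The median over all transcripts in the range of levels was 40.2, 40.3 and 40.1% in those eggs. Of all those transcripts, 52 held at least 75% in egg 10 and 104 in egg 20, and the number was highest in egg 18. For A above B in the egg left out, no share over all transcripts is given, so those cases are not counted. The lists had themselves been chosen on a share of A above that of B in the other 2 eggs. The lists shared 25, 22 and 30 transcripts with the 38 members.

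No member shared a Trinity gene with another transcript, although 3.75% of all transcripts did. The wider Trinity read cluster, a comparison added after the files were seen, gave 14 partners to 9 members, of which 13 could be tested. Partners were not chosen by the limits on shares, though their counts may share reads with the member. Between A and E, 4 of the 13 were higher in A and 1 was higher in E by edgeR's test, where 17.6% of all tested transcripts were higher in A and 17.5% higher in E (35.1% in all).

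The partner higher in E ran opposite to its member. DN50926c0g1t6 measured 33.0, 32.0 and 35.3 CPM in A of eggs 10, 18 and 20, and 42.1, 36.9 and 36.9 CPM in B. It measured 86.6, 69.3 and 71.5 CPM in C, 119.7, 119.1 and 133.9 CPM in D and 150.8, 136.8 and 159.4 CPM in E. No A library overlapped with C, D or E, and the level rose from C through E in each egg, to 4.46-fold that of A in the means, a change of 2.16 ± 0.10 (log2, SE; edgeR, adjusted p = 1.77e-11). The member of the same component, DN50926c0g2t1, measured 28.9, 26.6 and 44.2 CPM in A and 3.27, 1.42 and 2.98 CPM in E.

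The other 8 tested partners did not pass between A and E, with changes of -0.65 to 0.39 (log2), and include further partners of DN47195c2g1t2. Of the partners higher in A, DN47195c1g4t1 measured 103.6, 120.3 and 159.3 CPM in A and 16.6, 5.98 and 10.7 CPM in E, without overlap. Its A share was 60.4%, just past the limit, and its level differed 11.5-fold between A and E, a change of -3.57 ± 0.22 (log2, SE; edgeR, adjusted p = 8.60e-10). Its member DN47195c2g1t2 measured 267.2, 313.9 and 434.4 CPM in A and 41.3, 22.7 and 36.2 CPM in E.

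DN46906c1g2t1, the partner of DN46906c1g1t1, measured 45.2, 26.0 and 32.0 CPM in A, 46.6, 23.8 and 21.9 CPM in B and 20.1, 13.3 and 19.1 CPM in E. A lay above E in each egg, with a change of -0.95 ± 0.21 (log2, SE; edgeR, adjusted p = 0.00154). In egg 10 its B library stood slightly above its A library, as in its member.

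**Figure D5:**
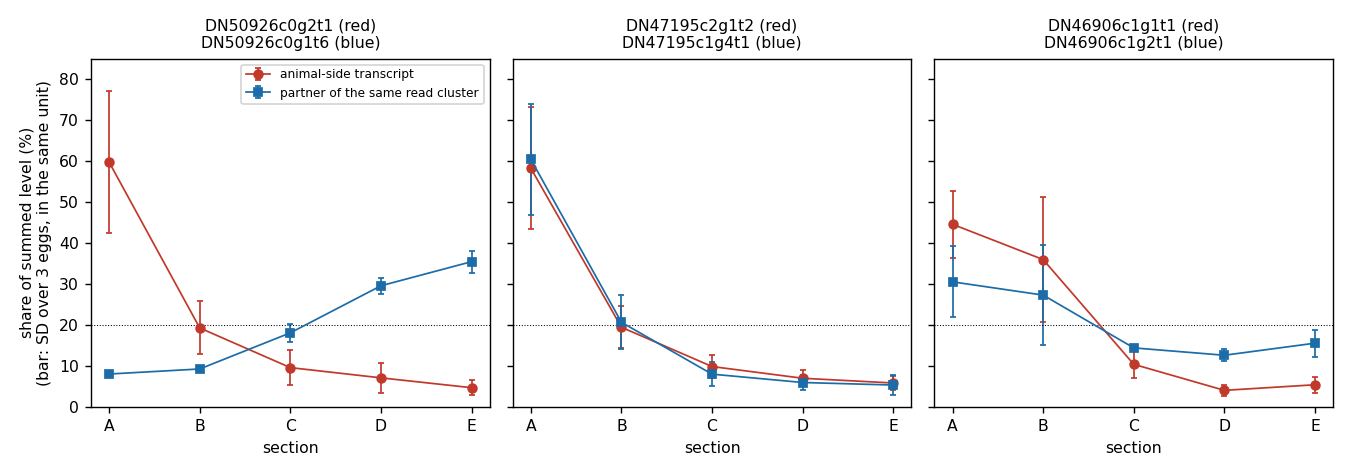
Share of the summed level (%, mean over 3 eggs, bars SD in the same unit) in segments A to E for 3 animal-side transcripts (red) and a partner of the same read cluster (blue), with the even share of 20% dotted. The partner in the left panel rises to 35.4% in E, the middle one follows its member, and the right one declines less than its member.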

How the data were processed

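The authors deposited 2 files per library: whole-number counts per assembled transcript, and a normalized signal equal to those counts divided by 1 number per library, the deposited factor (largest relative range of the ratio 9.81e-10). The signal was used only to obtain that factor. DESeq2, kallisto, STAR 2.5.2b and Trimmomatic are named, with no role, per the submitters' processing notes. Neither the assembly nor the use of strand in counting is given in those sources. The spike-in line, 0.0115 to 0.0235% of the counts, stayed out of the tests, and out of library sizes except in the alternative named for it.

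Levels are CPM scaled with TMM over all transcripts (R 4.3.3, edgeR 4.0.16). Tests used the counts with filterByExpr, which kept at least 99.6% of every library's counts, TMM over the transcripts kept, and edgeR's quasi-likelihood test on segment plus egg over 15 libraries (8 residual degrees of freedom, common biological coefficient of variation 0.123), with Benjamini-Hochberg adjustment over 29102 transcripts at 0.05. SEs were derived from the F statistic. The egg was a block because its 5 segments come from the same egg. As a check, deviations from segment means correlated at 0.264 to 0.743 between libraries of the same egg, and at -0.61 to 0.31 between libraries of different eggs and segments. The code was tested on simulated data.

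The members and lists were chosen with earlier results of these data known. Members named are the 2 with the highest level, with the highest share of A and B, with the smallest difference between A and B and with the largest fall from C to E, those with the widest and the narrowest range over eggs (the latter from 20 CPM), and those at the 75% limit. Partners named are those of at least 5 CPM with the largest change per direction. Alternatives were DESeq2 1.42.0 (its size factors and its Wald test), total counts, the deposited factor, the spike-in, other filters, no block, and leaving out each egg and library. Marker lists could not be applied because no ID had a gene name.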

Additional observations from a re-analysis of the deposited data

Results flagged for a closer look

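The spike-in line of the count files was itself tested in no comparison, and it set the library sizes only in the alternative named for it. It carried signal in all 15 libraries. Its lowest count was 693 and its highest 3407, above the 3 counts that a count of 0 allows. Which RNA it stands for, and how much was added per segment, is given neither by the labels nor by the files. On the CPM scale it averaged 139 in A and 119 in B, against 147 for C, 229 for D and 200 for E.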

How the results depend on the processing

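Scaling moved the counts of calls most. With the deposited factor, E against C called 18413 transcripts (520 higher, 17893 lower) and 37 members. D against C called 10195 and 31, E against D called 3586 and 4, and the members' median change from C to E was -1.44. The number of partners called between A and E also rose with that factor, but it has no share over all transcripts to set beside it. With the spike-in as size, 26 members were called for E against C, and D against C called 12542 and 34. For E against D with the spike-in no count over all transcripts is given, so the members called there are not counted. The median from C to E was -1.12. With total counts that median was -0.85. These scalings shifted the median of all transcripts from C to E to -0.68, -0.42 and -0.10. Relative to that shift the members' median was -0.75 with TMM, DESeq2 size factors, total counts and the deposited factor, and -0.71 with the spike-in. A new scaling moves the log2 change of every transcript by nearly the same amount. The likeness of these values therefore follows from the calculation and is no test of the members. Under every scaling all 38 members had a lower mean in D than in C, though with TMM only 21 did so in 3 of 3 eggs. In the means, E was below D in 28 with TMM and in 10 with the spike-in. The TMM calls from C to E split into 1772 higher and 1149 lower, against 1484 and 1954 with total counts and 451 and 3198 with the spike-in. The limits gave 90 members with the deposited factor (37 shared), 114 with the spike-in (35 shared), 92 at 70% and 5 at 80%.

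In fits without the replicate block, so without the pairing by egg, E against C called 697 transcripts and 4 members, D against C called 187 and 2, and E against D called 4 transcripts. DESeq2's Wald test called 249 transcripts for E against D. Leaving out 1 egg or library gave 1066 to 3804 transcripts and 9 to 19 members for E against C, 158 to 1044 and 5 to 13 for D against C, 9 to 218 transcripts for E against D, where TMM on all libraries called 82, and a median from C to E of -0.79 to -0.64. Fits with fewer libraries have fewer residual degrees of freedom, and the counts of members moved both up and down. For none of these changes was the cause tested. Of the named transcripts' alternatives for E against C or E against A, 349 kept their status, whether called or not called. A call was gained in 23 and lost in 6 (all DN53791c1g1t1), and none turned direction. The 349 include transcripts that had no call to lose. The contrast at D of DN45193c0g1t1 ranged in adjusted p from 0.000739 to 0.542 over the fits that left out an egg or a library. The comparison of partners within a Trinity gene could not be run, because no member had one.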
